A study of Mus musculus with 10 samples.

Results

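The transcripts described here belong to 40 mouse genes of the ATF4, amino acid and endoplasmic reticulum (ER) stress response. They were taken by name from a list of symbols, with newer names such as *Aars1* also accepted, out of 43432 genes in the count file, and all 40 were found. The RNA came from a mouse macrophage line, RAW264.7, sequenced in 5 conditions with 2 libraries each. The conditions were solvent alone (0.5% DMSO, called DMSO), solvent followed by the bacterial lipopolysaccharide LPS at 1 µg/mL (DMSO + LPS), and the fatty acid called **1**, a hexadecenoic acid with a ketone next to its double bond, at 32, 10 or 3.2 µM with LPS at 1 µg/mL. Compound **1** or solvent was given 1 h before LPS, and RNA was taken after 12 h. The labels of the libraries with **1** do not state the solvent it was given in. No library had **1** without LPS, so its effect is known here only in LPS-treated cells. All cells came from 1 line. The labels number the libraries of a condition as biological replicates but do not say whether they came from separate cultures, so each test below measures the spread between these libraries, which may be technical.

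When unfolded proteins build up in the ER, or when amino acids run short, kinases phosphorylate the translation factor eIF2α. Most protein synthesis then slows, but the transcription factor ATF4 is made and switches on genes for amino acid synthesis, amino acid uptake, the loading of tRNAs, and feedback on the response itself. The ER has its own branches, in which the sensors IRE1 and ATF6 turn on chaperones and the machinery that returns misfolded proteins to the cytosol for degradation (ER-associated degradation, ERAD). Macrophages that answer LPS make and secrete large amounts of protein, and parts of the unfolded protein response are known to be active in them.

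Library totals lay between 45966803 and 58976377 counts. The 8 macrophage markers were present, with a summed level of 9560 and 10400 CPM (the count as a share of the library scaled by edgeR's TMM method) in DMSO, 6530 and 6550 CPM in DMSO + LPS and 5010 and 5340 CPM at 32 µM, and of the T cell, B cell and endothelial markers (10 genes) none reached 1 CPM, with *Cd3e* and *Cd8a* at 0 in all libraries. The 4 epithelial markers *Epcam*, *Krt8*, *Krt18* and *Cdh1* summed to 38.2 CPM in replicate 1 at 10 µM and to 5.78 CPM in replicate 1 at 3.2 µM, and lay between 0 and 0.085 CPM in the other libraries. Fibroblast markers were also highest in the 10 µM replicate 1 (4.43 CPM against 0.051 to 0.798 CPM elsewhere), while neutrophil markers, mostly *S100a8*, summed to 0.599 and 1.09 CPM in DMSO, 6.32 and 6.55 CPM in DMSO + LPS and 1.59 and 2.49 CPM at 32 µM. Ribosomal RNA features took 4.2% of the counts of replicate 2 at 32 µM and between 0.177% and 0.39% of the others. They were the annotated ribosomal RNA genes and some further features, added because they rose with those genes. The part of these marker levels and of these 3 libraries in the results was not tested, and the counts at 32 and 10 µM are therefore also given without these libraries. As a check of the treatments, the mean level of *Nos2*, the inducible nitric oxide synthase, was 0.017 CPM in DMSO, 206 CPM in DMSO + LPS and 45.2 CPM at 32 µM, and that of *Nqo1*, a target of the antioxidant regulator Nrf2, was 2.62 CPM in DMSO + LPS and 16.2 CPM at 32 µM.

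In LPS-treated cells most of the 40 transcripts were higher than in solvent alone. Of the 40 genes, 30 rose and 5 fell (*Ddit4*, *Psat1*, *Aldh18a1*, *Atf6* and *Eif2ak3*) at an adjusted p below 0.05 in edgeR's quasi-likelihood test, while *Sesn2*, *Phgdh*, *Shmt2*, *Eprs* and *Iars* did not pass. LPS moved much of the transcriptome, and 25.2% of the 14172 genes tested were higher and 25.8% lower by the same rule. The members' median log2 fold change was 0.45, and that of all genes tested was 0.0026. In 30 members both LPS libraries lay above both DMSO libraries, in 6 below and in 4 they overlapped, against 38.2% of all genes above and 38.7% below. At a change of at least 1.5-fold, 16 members were higher, against 14.6% of all genes, and 1 was lower (*Eif2ak3*), against 13.6%. Scaling by library size alone lowers the median of all genes to −0.20, and the members then split into 21 higher and 9 lower. The libraries hold RNA pooled from many cells, so a lower level may reflect less RNA per cell or fewer cells that express the gene, which cannot be told apart.

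**Figure D1:**
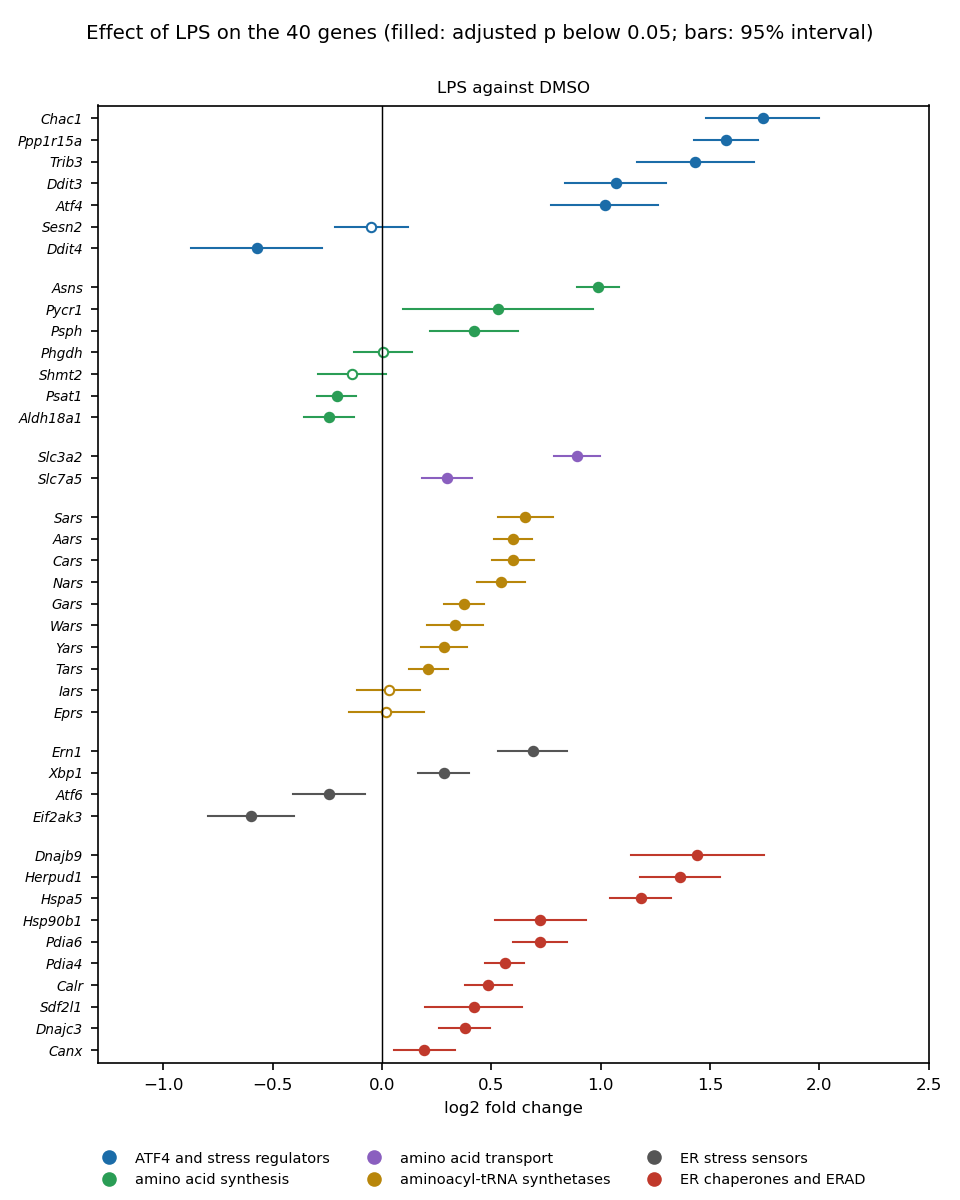
Log2 fold change of each of the 40 genes, DMSO + LPS against DMSO (x axis), grouped by role and ordered by size, with 95% confidence intervals from edgeR's quasi-likelihood fit of all 10 libraries. Filled points have an adjusted p below 0.05. All 10 ER chaperone and ERAD genes lie to the right of 0, *Chac1* lies highest at 1.74, and *Eif2ak3* (−0.60) and *Ddit4* (−0.57) lie lowest.

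Of the 7 regulators, 5 rose with LPS, 1 fell and 1 did not pass, against 25.2% of all genes higher and 25.8% lower. Their median log2 fold change was 1.07. With scaling by library size alone 5 rose, 2 fell (*Ddit4* and *Sesn2*) and the median was 0.86. *Atf4* itself (ENSMUSG00000042406, chr15:80255184-80257541, plus strand of GRCm38) was at 123 and 115 CPM in the DMSO libraries and 235 and 246 CPM in the DMSO + LPS libraries. Both LPS libraries lay well above both solvent libraries, a 2.02-fold difference (log2 1.02, SE 0.11, edgeR adjusted p = 9.27e-05). ATF4 is mainly controlled at translation, which these counts do not measure. *Ddit3* encodes CHOP, a transcription factor of prolonged ER stress, and stood at 8.83 and 7.59 CPM without and 17.1 and 17.4 CPM with LPS, 2.10-fold higher (adjusted p = 4.72e-05). *Ddit3* lies opposite *Mars*, which reached 122 CPM, and since use of the strand in counting is not given, its few reads cannot be wholly separated from those of its neighbor. *Mars* was slightly lower with LPS (log2 −0.18).

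The largest relative change of the 40 was that of *Chac1*, which encodes a glutathione-degrading enzyme. Its level was 2.43 and 2.01 CPM in DMSO and 7.49 and 7.37 CPM in DMSO + LPS (log2 1.74, SE 0.11, adjusted p = 5.11e-06 in edgeR's test). *Ppp1r15a* encodes GADD34, the phosphatase subunit that reverses eIF2α phosphorylation, and went from 16.4 and 17.2 CPM to 49.6 and 50.6 CPM (2.98-fold, adjusted p = 3.47e-07). *Trib3*, a pseudokinase that restrains ATF4 and CHOP, went from 2.92 and 3.38 CPM to 7.98 and 9.05 CPM (2.70-fold, adjusted p = 2.01e-05). The libraries of the 2 conditions did not overlap for any of these 3 genes. *Ddit4* (REDD1) and *Sesn2*, both inhibitors of the growth kinase mTORC1, behaved differently. *Ddit4* fell from 12.7 and 11.8 CPM to 7.77 and 8.69 CPM (log2 −0.57, adjusted p = 0.00642, or 0.0545 without DMSO + LPS replicate 1). *Sesn2* held 35.7 and 36.6 CPM and 35.7 and 34.2 CPM, and the libraries overlapped (95% interval of the log2 difference −0.22 to 0.12).

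The genes of amino acid synthesis did not move together with LPS. *Asns*, asparagine synthetase, went from 82.9 and 84.4 CPM in DMSO to 165 and 166 CPM in DMSO + LPS, 1.98-fold higher (SE of the log2 value 0.041, edgeR adjusted p = 4.44e-07). The replicates of each condition were within 2 CPM of each other. Of the 3 enzymes of serine synthesis, *Phgdh* did not pass (108 and 103 CPM against 103 and 109 CPM), *Psat1* fell slightly (285 and 281 CPM against 247 and 243 CPM, log2 −0.21) and *Psph* rose (log2 0.42). *Psph* lies opposite the well-expressed *Cct6a* (up to 465 CPM), and its rise was lost when libraries were scaled by size alone. *Shmt2*, the mitochondrial enzyme that moves the 1-carbon unit from serine to folate, did not pass (log2 −0.14, interval −0.29 to 0.02). Of the genes of proline synthesis, *Aldh18a1* fell (log2 −0.24, adjusted p = 0.00408), with a pseudogene of up to 4.8 CPM counted within its span, and *Pycr1* was called higher (log2 0.53, adjusted p = 0.0453). *Pycr1* was the least expressed member (mean 2.11 CPM), and its call held under only 3 of 11 alternatives. In sum 3 of the 7 rose and 2 fell, against 25.2% and 25.8% of all genes, and the median was 0.0046. With scaling by library size alone 1 rose, 4 fell and the median was −0.20, like that of all genes under this scaling.

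Both chains of an amino acid transporter rose with LPS. *Slc3a2* (4F2hc, CD98), the heavy chain shared by several amino acid exchangers, was at 254 and 252 CPM in DMSO and 463 and 475 CPM in DMSO + LPS (1.85-fold, edgeR adjusted p = 1.43e-06). *Slc7a5* (LAT1), the light chain that carries large neutral amino acids, was at 144 and 139 CPM and 175 and 173 CPM (1.23-fold, adjusted p = 0.00124), a rise that did not pass with scaling by library size alone. The 95% intervals of the 2 log2 differences, 0.78 to 1.00 and 0.18 to 0.41, did not overlap.

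Aminoacyl-tRNA synthetases couple each amino acid to its tRNA. Of the 10 in the list 8 rose with LPS and 2 did not pass, against 25.2% of all genes higher. Their median log2 fold change was 0.35. With scaling by library size alone 5 rose and 1 fell (*Iars*), whereas with a score of short-transcript genes in the fit all 10 rose, so that *Iars* passed in opposite directions under these 2 alternatives. *Sars* (serine) had the largest change, with 335 and 335 CPM in DMSO and 519.9 and 536 CPM in DMSO + LPS (1.57-fold), followed by those of *Aars* (alanine, 1.51-fold), *Cars* (cysteine, 1.51-fold) and *Nars* (asparagine, 1.46-fold). The changes of *Gars*, *Wars*, *Yars* and *Tars*, for glycine, tryptophan, tyrosine and threonine, lay between 1.16-fold and 1.30-fold. *Yars* overlaps an opposite gene of up to 75.1 CPM and *Wars* one of up to 9.26 CPM. *Iars* and *Eprs*, the enzymes for isoleucine and for glutamate and proline, gave log2 values of 0.03 and 0.02, and their DMSO and DMSO + LPS libraries overlapped.

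The ATF4-type motif is shown here because it is the known binding element of this pathway. The C/EBP-ATF response element (CARE) was searched as TGATGNAA on both strands in the 300 bases from 250 before to 50 after the RefSeq gene start (GRCm38.p6). A window was present for 35 of the 40 members, and for *Slc7a5*, *Cars*, *Nars*, *Wars* and *Atf6* there was none. The letters occurred in 10 members (*Trib3*, *Chac1*, *Asns*, *Pycr1*, *Aars*, *Gars*, *Iars*, *Tars*, *Yars* and *Herpud1*) and in 3.97% of all 32851 promoter windows. The sites of 6 of them follow (*Aars* has 2), each written 5′ to 3′ on the strand that carries the motif, with the motif in capitals and 5 bases on each side.
Trib3, chr2:152344039-152344046: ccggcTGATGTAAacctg
Chac1, chr2:119351049-119351056: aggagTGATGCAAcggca
Asns, chr6:7693225-7693232: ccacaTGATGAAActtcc
Aars, chr8:111033730-111033737: tcggcTGATGCAAtgctc
Aars, chr8:111033851-111033858: cgctcTGATGAAAagtga
Iars, chr13:49682137-49682144: ggaggTGATGCAAtactg
Herpud1, chr8:94386317-94386324: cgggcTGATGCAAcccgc
The coordinates are those of the capital letters. A match of letters is a description of the sequence and does not show binding. The whole window of *Asns* (chr6:7693160-7693459, minus strand, written in the sense of the gene) places the motif just before the start.
Asns promoter: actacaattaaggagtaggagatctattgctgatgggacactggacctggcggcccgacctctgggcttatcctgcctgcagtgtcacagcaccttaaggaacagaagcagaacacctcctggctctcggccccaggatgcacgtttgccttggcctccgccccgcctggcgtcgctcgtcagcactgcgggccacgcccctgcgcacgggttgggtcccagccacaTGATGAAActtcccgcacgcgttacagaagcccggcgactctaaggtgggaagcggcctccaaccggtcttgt

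Of the 4 genes of the ER stress sensors 2 rose and 2 fell with LPS, against 25.2% and 25.8% of all genes. *Ern1* encodes IRE1, the kinase and endonuclease that splices *Xbp1* mRNA, and rose from 33.8 and 37.9 CPM to 58.8 and 56.8 CPM (1.61-fold, edgeR adjusted p = 6.65e-05). *Xbp1*, the transcription factor made from that spliced mRNA, was at 218 and 230.4 CPM in DMSO and 272 and 273 CPM in DMSO + LPS (log2 0.28, adjusted p = 0.00193), a rise that did not pass with scaling by library size alone. Gene counts do not separate the spliced from the unspliced form. *Eif2ak3*, which encodes the eIF2α kinase PERK, fell from 34.0 and 36.5 CPM to 23.0 and 23.5 CPM (log2 −0.60, adjusted p = 0.000552). *Atf6* also fell (log2 −0.24, adjusted p = 0.0212), but not without DMSO replicate 2 or without DMSO + LPS replicate 2, where its adjusted p reached 0.14.

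All 10 ER chaperone and ERAD genes rose with LPS, against 25.2% of all genes, with a median log2 fold change of 0.64. With scaling by library size alone 8 rose, *Sdf2l1* did not pass and *Canx* turned to −0.014 without passing. *Hspa5* (ENSMUSG00000026864, chr2:34771970-34777547, plus strand) encodes BiP, the main Hsp70 chaperone of the ER. It was at 1244 and 1355 CPM in DMSO and 2939 and 2959 CPM in DMSO + LPS, 2.27-fold higher (SE of the log2 value 0.059, edgeR adjusted p = 1.23e-06). *Dnajb9*, a J-domain partner of BiP also known as ERdj4, went from 20.7 and 24.4 CPM to 61.1 and 61.6 CPM (2.72-fold, adjusted p = 4.15e-05). *Herpud1* (ENSMUSG00000031770, chr8:94386438-94395377, plus strand), an ER membrane protein that helps assemble the ERAD complex, went from 25.4 and 29.5 CPM to 69.3 and 72.0 CPM (2.57-fold, adjusted p = 2.8e-06). For each of these 3 genes the lowest LPS library was more than 2-fold above the highest solvent library.

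The other 7 were raised less. *Hsp90b1* (the Hsp90 of the ER, 1.65-fold) and *Pdia6* (a disulfide isomerase, 1.65-fold) led them, followed by *Pdia4* (another disulfide isomerase, 1.48-fold) and *Calr* (calreticulin, a lectin chaperone, 1.40-fold). *Sdf2l1*, a partner of ER J-domain proteins, *Dnajc3*, an inhibitor of eIF2α kinases and BiP partner, and *Canx*, the membrane lectin calnexin, followed with 1.34-fold, 1.30-fold and 1.14-fold. *Canx* and *Sdf2l1* also lost their calls when single libraries were left out (adjusted p up to 0.873 and 0.0982 over all alternatives).

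The ER stress element is shown because most of these promoters carried it. The ER stress element (ERSE) was searched on both strands of the same windows as CCAAT and CCACG with 9 bases of any kind between them. ATF6 and XBP1 are known to act at this element together with NF-Y. It occurred in 6 of the 10 chaperone and ERAD genes, in no other member with a window, and in 0.119% of all 32851 windows. Each site is written 5′ to 3′ on the strand that carries it, with the fixed letters in capitals and 5 bases on each side.
Hspa5, chr2:34772025-34772043: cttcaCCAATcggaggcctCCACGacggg
Hsp90b1, first, chr10:86705638-86705656: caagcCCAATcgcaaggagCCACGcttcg
Hsp90b1, second, chr10:86705533-86705551: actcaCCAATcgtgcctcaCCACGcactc
Dnajc3, chr14:118937827-118937845: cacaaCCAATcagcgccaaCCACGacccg
Pdia6, chr12:17266491-17266509: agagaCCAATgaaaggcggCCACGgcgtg
Calr, chr8:84847075-84847093: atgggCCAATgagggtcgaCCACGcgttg
Canx, chr11:50325800-50325818: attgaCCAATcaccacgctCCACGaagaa
*Herpud1* had no ERSE but carried the shorter ERSE-II, ATTGG and CCACG with 1 base of any kind between them, which occurred in 0.0365% of the windows, besides the CARE shown above. No motifs overlapped. Its promoter (chr8:94386179-94386478, plus strand) and those of *Hspa5* (chr2:34771840-34772139, plus strand) and *Calr* (chr8:84846882-84847181, minus strand) are written in the sense of the gene, with CARE and ERSE-II whole and the fixed letters of ERSE in capitals. The CARE of *Herpud1* and the ERSE of *Calr* lie on the opposite strand and so appear as their reverse complements.
Herpud1 promoter: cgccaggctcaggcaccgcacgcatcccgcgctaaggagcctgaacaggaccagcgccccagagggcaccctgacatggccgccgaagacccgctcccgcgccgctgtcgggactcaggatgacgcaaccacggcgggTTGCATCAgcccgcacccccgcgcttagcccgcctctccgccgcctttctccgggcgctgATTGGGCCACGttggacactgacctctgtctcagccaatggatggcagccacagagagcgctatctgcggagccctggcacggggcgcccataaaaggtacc
Hspa5 promoter: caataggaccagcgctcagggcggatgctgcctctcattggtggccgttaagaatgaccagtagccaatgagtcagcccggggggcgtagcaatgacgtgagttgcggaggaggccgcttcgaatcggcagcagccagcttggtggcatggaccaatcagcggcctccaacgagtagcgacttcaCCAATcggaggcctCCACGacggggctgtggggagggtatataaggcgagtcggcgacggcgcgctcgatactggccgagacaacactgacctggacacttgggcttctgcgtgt
Calr promoter: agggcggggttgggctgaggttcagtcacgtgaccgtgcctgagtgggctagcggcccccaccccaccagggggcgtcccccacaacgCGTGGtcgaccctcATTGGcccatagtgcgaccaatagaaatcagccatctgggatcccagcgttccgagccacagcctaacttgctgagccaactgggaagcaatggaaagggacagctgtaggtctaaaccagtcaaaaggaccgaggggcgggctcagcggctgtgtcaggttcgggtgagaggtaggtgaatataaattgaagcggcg

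With **1** at 32 µM 6 of the 10 ER chaperone and ERAD genes raised by LPS were lower than in DMSO + LPS, while of the genes of amino acid synthesis and transport 2 were higher and 2 lower. Of the 40 genes 10 fell (*Herpud1*, *Ddit3*, *Sdf2l1*, *Sesn2*, *Hspa5*, *Calr*, *Pdia6*, *Pdia4*, *Slc7a5* and *Aldh18a1*), 2 rose (*Slc3a2* and *Phgdh*) and 28 did not pass. Of all genes tested 5.72% fell and 4.06% rose by the same rule. The members' median log2 fold change was −0.063, against 0.0082 over all genes. Only *Herpud1* changed by more than 1.5-fold, against 2.91% of all genes that fell by as much. In 22 members both 32 µM libraries lay below both DMSO + LPS libraries, in 9 both lay above and in 9 they overlapped. Over all genes tested, 24.3% lay below and 25.7% above in this way. Without the 3 libraries that stand apart, 3 genes fell (*Herpud1*, *Hspa5* and *Sesn2*) and 1 rose (*Slc3a2*), with 1 library left at 32 µM and its spread assumed to be like that of the others.

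**Figure D2:**
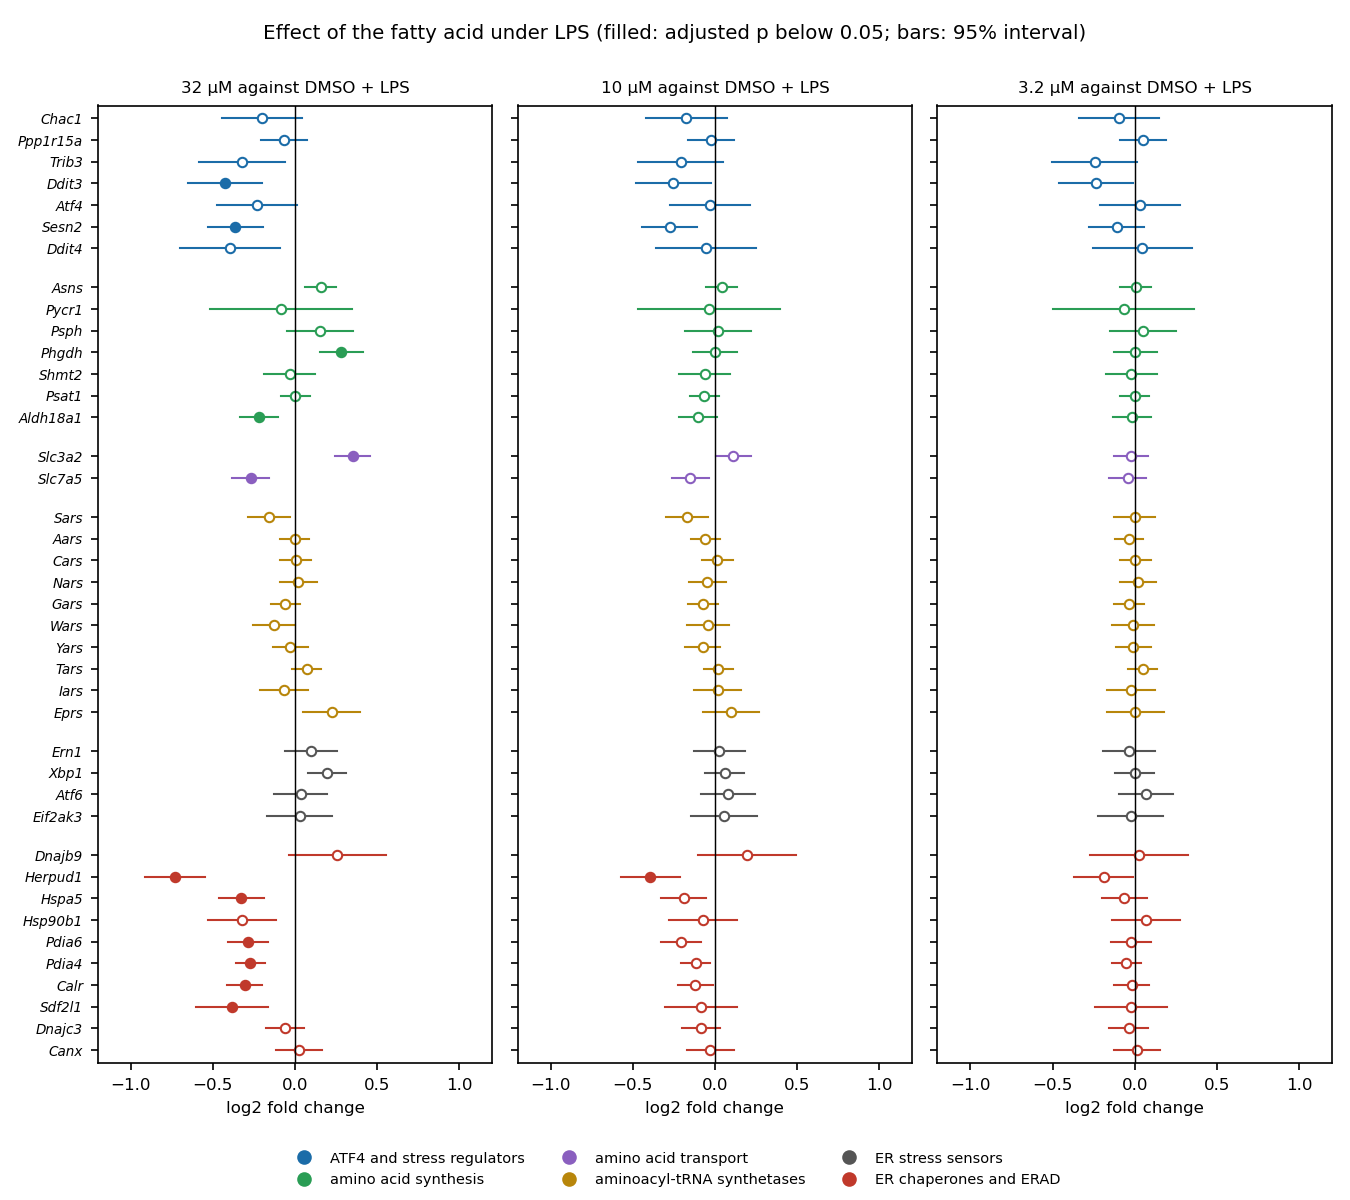
Log2 fold change of each of the 40 genes at 32, 10 and 3.2 µM of **1** with LPS, each against DMSO + LPS (x axis), with 95% confidence intervals from the same fit and the same order of genes as for LPS. Filled points have an adjusted p below 0.05. At 32 µM 12 points are filled, at 10 µM only *Herpud1* (−0.39), and at 3.2 µM none.

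The ER chaperone and ERAD genes held 6 of the 10 members that fell. Of this list 60% fell, against 5.72% of all genes, and its median was −0.30 on the log2 scale. Of the 10 genes in this group 3 fell without either DMSO + LPS library, 4 without replicate 2 at 32 µM, 5 without replicate 1 and 2 without the 3 libraries that stand apart, with medians from −0.31 to −0.25. *Herpud1* had the largest decrease of the 40. It was at 69.3 and 72.0 CPM in DMSO + LPS and 41.3 and 43.8 CPM at 32 µM, so that it fell by 39.8% (log2 −0.73, SE 0.078, edgeR adjusted p = 0.000691). Both 32 µM libraries lay between the DMSO and the DMSO + LPS libraries, and the call held under all 13 alternatives (log2 −0.77 to −0.69). *Hspa5* was at 2939 and 2959 CPM and 2254 and 2450.1 CPM, 20.2% lower (log2 −0.33, SE 0.059, adjusted p = 0.0103). *Calr* was at 2041 and 2067 CPM and 1710.1 and 1609.8 CPM, 19.2% lower (log2 −0.31, SE 0.046, adjusted p = 0.00422). The 32 µM libraries of *Hspa5* stayed well above solvent alone, while those of *Calr* came closer to it.

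*Pdia4* was at 193 and 197 CPM in DMSO + LPS and 161 and 162 CPM at 32 µM (17.2% lower, edgeR adjusted p = 0.00299). *Pdia6* was at 517 and 529 CPM and 443 and 414 CPM (18.1% lower, adjusted p = 0.0115), and *Sdf2l1* was at 119 and 129 CPM and 99.3 and 90.3 CPM (23.4% lower, adjusted p = 0.0423). For *Sdf2l1* the 32 µM libraries lay close to the DMSO libraries (98.2 and 87.1 CPM). The calls of *Calr* and *Pdia4* were lost only when the 3 libraries that stand apart were left out together (adjusted p = 0.074 and 0.0804). Those of *Hspa5*, *Pdia6* and *Sdf2l1* were each lost on leaving out single libraries, among them either DMSO + LPS library, with adjusted p up to 0.0792, 0.155 and 0.249 over all alternatives.

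The remaining 4 genes of this group did not pass in edgeR's test. *Hsp90b1* was at 803 and 786 CPM in DMSO + LPS and 689 and 581 CPM at 32 µM (log2 −0.32, interval −0.53 to −0.12), a difference close to that of *Hspa5* with more spread between the 32 µM libraries. It passed, lower, under 5 of the 13 alternatives, DESeq2's Wald test and the fit with a replicate block among them. *Dnajb9* was at 61.1 and 61.6 CPM and 66.5 and 80.1 CPM (log2 0.26, interval −0.04 to 0.55), with both 32 µM libraries above those of DMSO + LPS, and passed, higher, under 1 alternative. *Dnajc3* (log2 −0.06, interval −0.18 to 0.06) and *Canx* (log2 0.02, interval −0.12 to 0.16) were close to 0.

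**Figure D3:**
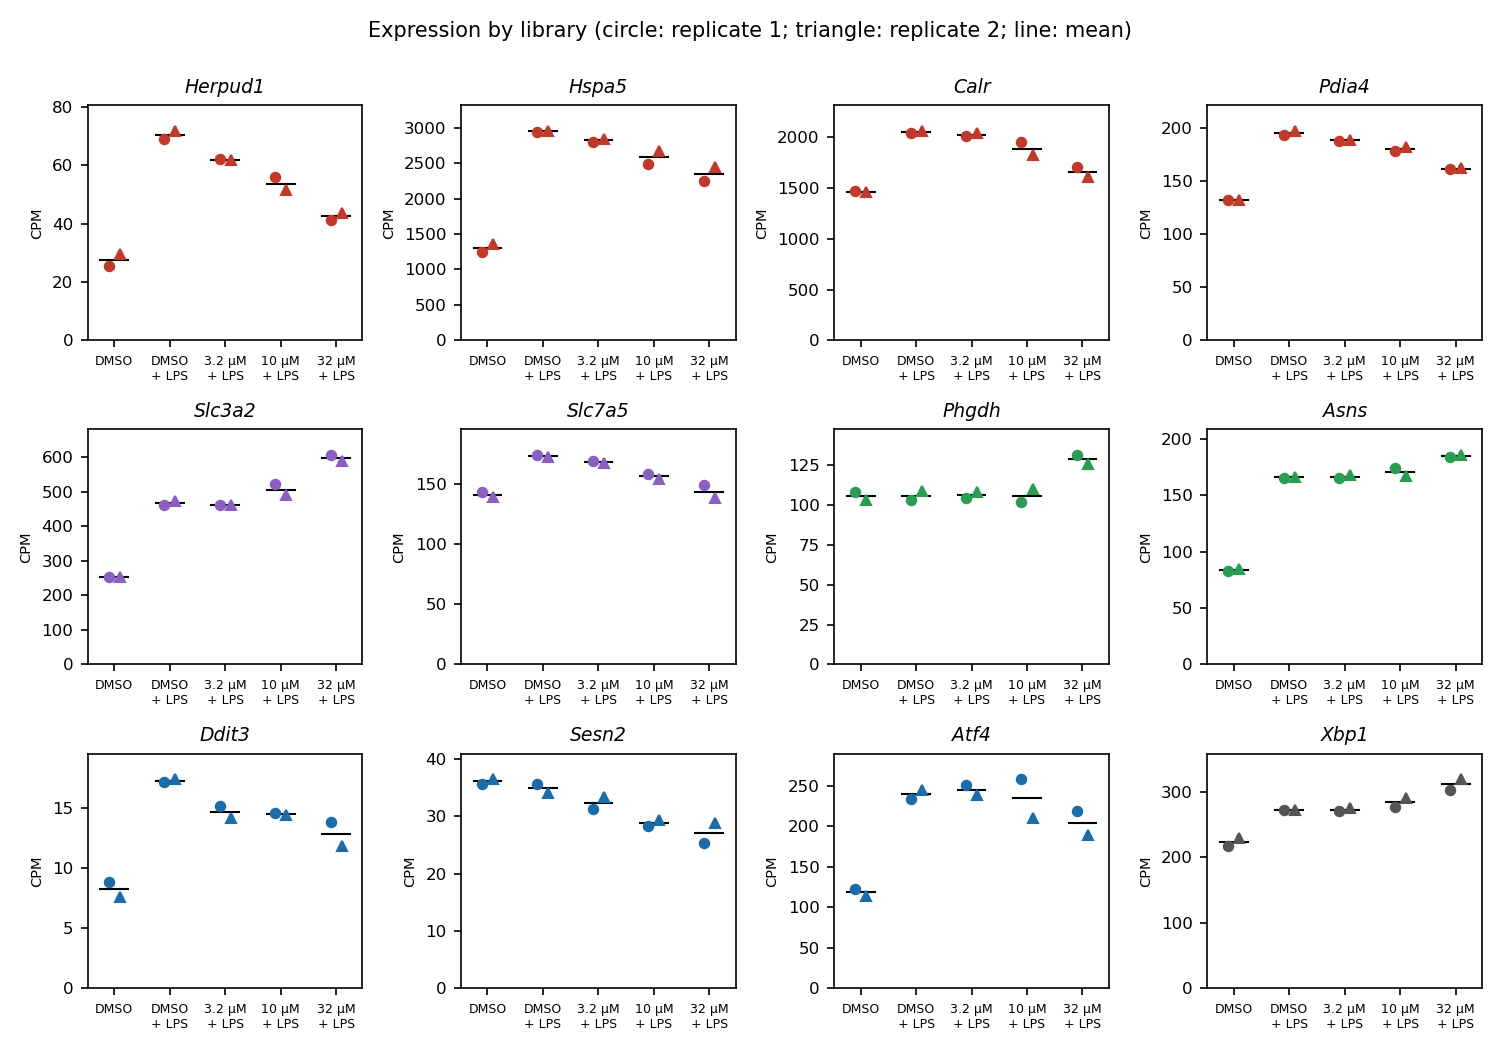
Expression of 12 of the 40 genes in every library (CPM, linear axis from 0), for DMSO, DMSO + LPS and 3.2, 10 and 32 µM of **1** with LPS. Circles are replicate 1, triangles replicate 2 and lines the mean of the 2 libraries. *Herpud1* steps down from 69.3 and 72.0 CPM in DMSO + LPS to 41.3 and 43.8 CPM at 32 µM, and *Slc3a2* lies highest at 32 µM (608 and 588 CPM).

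Among the regulators 2 of 7 fell at 32 µM (against 5.72% of all genes) and the median was −0.32. *Ddit3* was at 17.1 and 17.4 CPM in DMSO + LPS and 13.8 and 11.8 CPM at 32 µM (log2 −0.43, SE 0.098, edgeR adjusted p = 0.0323). *Sesn2*, which had not passed the test with LPS, was at 35.7 and 34.2 CPM and 25.4 and 28.9 CPM (log2 −0.36, SE 0.072, adjusted p = 0.0166), below its level in solvent alone as well. Their calls were lost without either DMSO + LPS library and in edgeR on the 4 libraries compared, that of *Ddit3* also without replicate 2 at 32 µM and without the 3 libraries that stand apart, and that of *Sesn2* also without replicate 1 at 32 µM (adjusted p up to 0.257 for *Ddit3* and 0.136 for *Sesn2* over all alternatives). *Atf4* itself did not pass, with 235 and 246 CPM in DMSO + LPS and 219 and 189.9 CPM at 32 µM (log2 −0.23, interval −0.48 to 0.01), although its libraries did not overlap. *Ddit4* (log2 −0.40, interval −0.70 to −0.09), *Trib3* (−0.32, interval −0.58 to −0.06), *Chac1* (−0.20, interval −0.45 to 0.05) and *Ppp1r15a* (−0.06, interval −0.20 to 0.08) did not pass either. All 7 estimates lay below 0, and in all 7 both 32 µM libraries lay below both DMSO + LPS libraries, against 24.3% of all genes.

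The chains of the transporter moved in opposite directions. *Slc3a2* (ENSMUSG00000010095, chr19:8706882-8723369, minus strand) was at 463 and 475 CPM in DMSO + LPS and 608 and 588 CPM at 32 µM, 1.28-fold higher (log2 0.35, SE 0.046, edgeR adjusted p = 0.00206). The call held under all 13 alternatives, with log2 values from 0.33 to 0.37. *Slc7a5* was at 175 and 173 CPM and 149.8 and 138 CPM (log2 −0.27, SE 0.049, adjusted p = 0.0105), back at about its level in solvent alone (144 and 139 CPM). That call was lost without either DMSO + LPS library, without replicate 2 at 32 µM and without the 3 libraries that stand apart. It was also lost in edgeR on the 4 libraries compared.

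In amino acid synthesis 1 of 7 genes rose and 1 fell (against 4.06% and 5.72% of all genes), with a median of 0.0021. *Phgdh* (ENSMUSG00000053398, chr3:98313170-98339990, minus strand), the first enzyme of serine synthesis, was at 103 and 109 CPM in DMSO + LPS and 132 and 126 CPM at 32 µM, 1.22-fold higher (log2 0.28, SE 0.057, edgeR adjusted p = 0.0177). It had not passed the test with LPS, and both 32 µM libraries were above those of all other conditions. *Psph* (log2 0.15, interval −0.05 to 0.35), *Psat1* (0.0021, interval −0.09 to 0.09) and *Shmt2* (−0.03, interval −0.19 to 0.12), which act after it, did not pass. *Aldh18a1* was at 75.8 and 70.9 CPM and 63.0 and 63.2 CPM (log2 −0.22, adjusted p = 0.0311), lower still than with LPS alone. The calls of *Phgdh* and *Aldh18a1* were each lost when any 1 of the 4 libraries compared was left out. Both were also lost without the 3 libraries that stand apart, and in edgeR on the 4 libraries compared with none left out. *Asns* was at 165 and 166 CPM and 184 and 186 CPM and missed the threshold in edgeR's test (log2 0.16, adjusted p = 0.0517), but was called higher under 3 of the 13 alternatives, DESeq2's Wald test among them. *Pycr1* was too weak to tell (interval −0.52 to 0.35).

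None of the 10 synthetases passed at 32 µM in edgeR's test, 3 of them had an unadjusted p below 0.05 (*Eprs* higher, *Sars* and *Wars* lower, against 10.8% of all genes higher and 11.4% lower) and DESeq2's Wald test also gave 0. Their log2 values ran from −0.16 (*Sars*) to 0.22 (*Eprs*), with a median of −0.016. *Aars* was at 447 and 449 CPM in DMSO + LPS and 446 and 449 CPM at 32 µM (interval −0.09 to 0.08). Of the 4 sensor genes none passed in edgeR's test, 1 (*Xbp1*) had an unadjusted p below 0.05, and DESeq2's Wald test called that gene higher. *Xbp1* was at 272 and 273 CPM and 303 and 320.4 CPM (log2 0.19, interval 0.08 to 0.31, adjusted p = 0.0534), with both 32 µM libraries above all others. *Ern1*, *Atf6* and *Eif2ak3* gave log2 values of 0.10, 0.03 and 0.03.

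At 10 µM 1 of the 40 genes, *Herpud1*, passed the test against DMSO + LPS, while 1.7% of all genes fell and 0.967% rose. *Herpud1* was at 55.9 and 51.7 CPM, 23.8% below DMSO + LPS (log2 −0.39, SE 0.077, edgeR adjusted p = 0.0434). Its call was lost when any 1 of the 4 libraries compared was left out, replicate 1 at 10 µM with the epithelial transcripts included (log2 −0.45 without it). The call was also lost in edgeR on the 4 libraries compared with none left out. Without the 3 libraries that stand apart 0 members passed at 10 µM in edgeR's test (adjusted p = 0.188 for *Herpud1*). Among those that did not pass were *Sesn2* (log2 −0.27, unadjusted p = 0.00564, adjusted p = 0.126), *Ddit3* (−0.25, adjusted p = 0.341) and *Pdia6* (−0.20, adjusted p = 0.116), of which DESeq2's Wald test called *Pdia6* lower. At 3.2 µM none of the 40 genes passed in edgeR's fit of all libraries and neither did any other gene tested, so 0% fell and 0% rose. At an unadjusted p below 0.05 there were 2 members, against 2.46% of all genes lower and 1.77% higher. They were *Herpud1* with 62.1 and 61.8 CPM (log2 −0.19, interval −0.37 to −0.01) and *Ddit3* with 15.1 and 14.1 CPM (−0.24, interval −0.46 to −0.01), both lower. DESeq2's Wald test gave 0 members and 27 genes in all at this dose. EdgeR on the 4 libraries compared called *Herpud1* lower (adjusted p = 0.035) among 487 of 13391 genes. The 3 doses share their DMSO + LPS libraries, so similar estimates at different doses are not independent of each other.

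The doses were also compared directly. These fold changes do not compare with the DMSO + LPS libraries, although the scaling and the spread in the test came from all 10 libraries. From 10 to 32 µM 2 members rose and 0 fell, while 0.804% of all genes rose and 1.95% fell. *Slc3a2* was at 522 and 490.2 CPM at 10 µM and 608 and 588 CPM at 32 µM (log2 0.24, SE 0.046, edgeR adjusted p = 0.035). *Phgdh* was at 102 and 109.9 CPM and 132 and 126 CPM (log2 0.28, SE 0.057, adjusted p = 0.0461). In both genes the libraries of the 2 doses did not overlap. Neither call held without replicate 2 at 10 µM, without either 32 µM library or with scaling by library size alone. Both were also lost without the 3 libraries that stand apart. EdgeR on the 4 libraries compared, without the spread of the other conditions, called neither and passed 5 of 13355 genes in all. The call of *Phgdh* was also lost without replicate 1 at 10 µM. *Herpud1* missed the threshold in this comparison (log2 −0.34, interval −0.52 to −0.16, adjusted p = 0.0784), as did *Calr* (−0.19, adjusted p = 0.103) and *Pdia4* (−0.15, adjusted p = 0.104). DESeq2's Wald test called these 3 lower.

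The genes differed over 3 orders of magnitude in level. Per kilobase of the longest coding transcript, the mean DMSO level was highest for *Calr* (672 CPM per kb), *Hspa5* (354) and *Canx* (222) and lowest for *Trib3* (1.56), *Chac1* (1.36) and *Pycr1* (0.549). *Atf4* was at 68.7 CPM per kb in DMSO and 139 in DMSO + LPS. Under LPS *Hspa5* reached 803 CPM per kb, next to *Calr* at 940.5. The strongest relative changes with LPS were thus in genes of low level such as *Chac1*, while the largest gain in level was that of *Hspa5*.

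**Figure D4:**
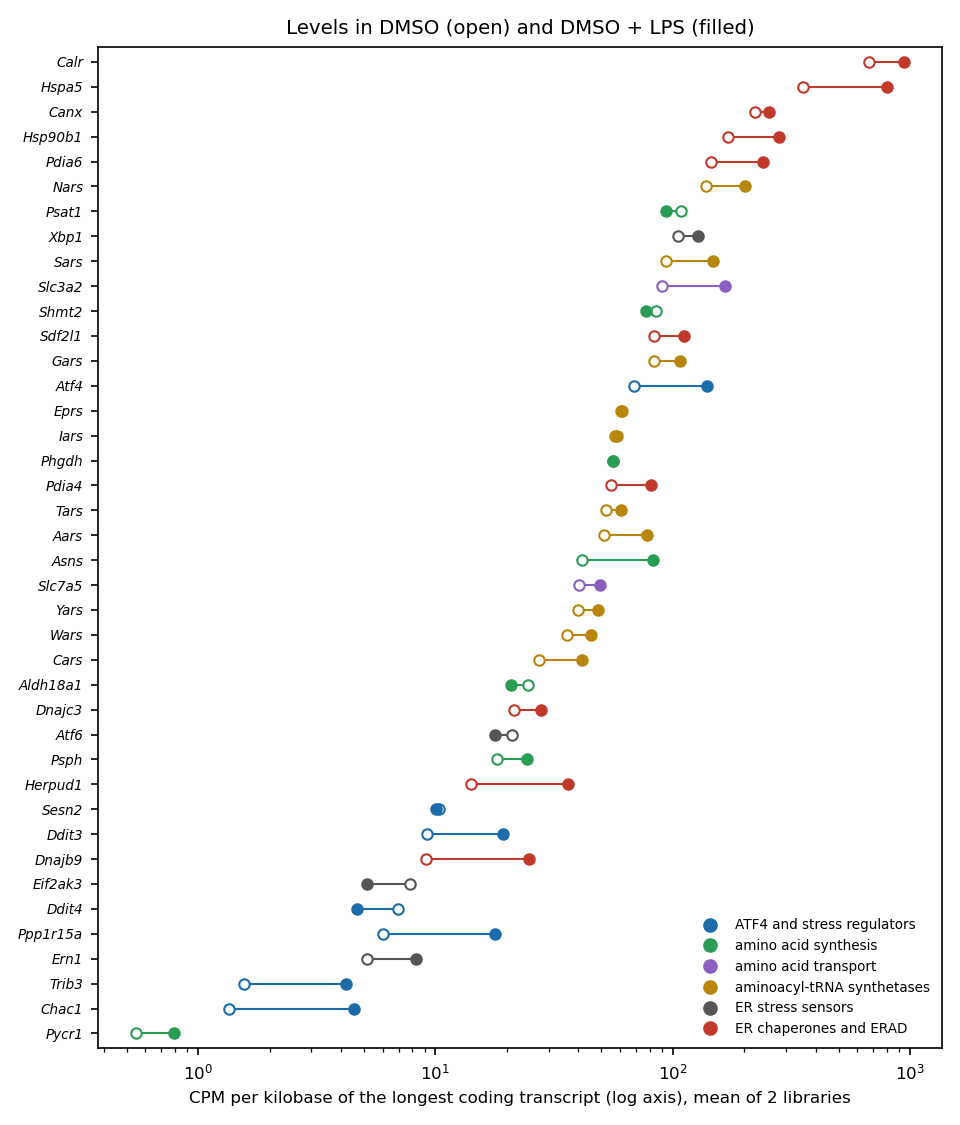
Mean level of each of the 40 genes in DMSO (open) and DMSO + LPS (filled), as CPM per kilobase of the longest coding transcript on a log axis, ordered by the DMSO level. Lines join the 2 means and colors give the group. Chaperones such as *Calr* and *Hspa5* lie at the top, and *Pycr1* (0.549 in DMSO) at the bottom.

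Other genes of the same pathways, which are not among the 40, were read beside them. Of 29 other ATF4 pathway genes 25 were tested, and with LPS 13 rose and 6 fell (52% and 24%, against 25.2% and 25.8% of all genes). *Slc7a11*, the cystine carrier that also pairs with the *Slc3a2* product, went from 59.2 and 67.0 CPM to 906 and 829 CPM (log2 3.78, edgeR adjusted p = 6.34e-08), and *Cebpb*, a partner of ATF4 on its target genes, from 41.9 and 30.0 CPM to 153 and 180.5 CPM (log2 2.21). *Eif2ak4*, the amino acid sensing kinase GCN2 (log2 −0.78), and *Gpt2*, an alanine aminotransferase (log2 −0.75), were the lowest of those that fell. At 32 µM 4 of the 25 rose and 4 fell (16% each, against 4.06% and 5.72% of all genes). *Slc6a9*, a glycine carrier (log2 0.84), and *Atf5*, a relative of *Atf4* (log2 0.52), rose, while *Eif2ak2*, the RNA-activated eIF2α kinase PKR and an interferon-induced gene (log2 −0.91), and *Cth*, an enzyme of cysteine synthesis (log2 −0.63, after a rise of 2.15 with LPS), fell.

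Of 38 other ER folding and ERAD genes tested, out of 40 listed, 26 rose with LPS and 5 fell (68.4% and 13.2%, against 25.2% and 25.8% of all genes), led by *Manf* (log2 1.27) and *Creld2* (log2 1.18), both secreted on ER stress. At 32 µM 1 rose and 2 fell (2.63% and 5.26% of the 38, against 4.06% and 5.72% of all genes), with a median of 0.012, and DESeq2's Wald test gave 2 higher and 4 lower. By edgeR these were *Creb3l2*, an ER membrane transcription factor (log2 0.32), *Syvn1*, the ERAD ubiquitin ligase HRD1 (log2 −0.25), and *Tmbim6*, an ER calcium channel-like protein (log2 −0.20). Of 10 other cytosolic tRNA synthetases 5 rose and 2 fell with LPS (against 25.2% and 25.8% of all genes), with *Farsb* (log2 0.61) and *Hars* (log2 0.57) highest and *Vars* (log2 −0.32) lowest. Of the 17 mitochondrial ones none rose in edgeR's test (1 at an unadjusted p below 0.05, and 0 by DESeq2's Wald test) and 9 fell (6 by DESeq2's Wald test), among them *Vars2* (log2 −0.81). At 32 µM none of these 27 synthetases passed in edgeR's test (2 higher and 2 lower at an unadjusted p below 0.05), and DESeq2's Wald test called 1 cytosolic one lower. *Lars2*, named after its values were seen, was at 438 and 461 CPM in DMSO + LPS and 339.6 and 5195 CPM at 32 µM (log2 2.62, not passed), and its high value lay in the library with the most ribosomal RNA features.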

How the data were processed

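Poly(A) RNA of RAW264.7 cells was sequenced from stranded libraries, 10 in all. The authors deposited raw read counts per Ensembl gene. The submitters' processing notes name Trimmomatic, FastQC, STAR, DESeq2 and mm10, while the counting tool, its strand setting and the annotation are not given in the sources used here. Genes passing edgeR's filterByExpr at a minimum count of 10 (14172, all 40 members among them) were fitted in R 4.3.3 with edgeR 4.0.16 (limma 3.58.1; TMM, quasi-likelihood test) with 1 mean per condition, and p-values were adjusted by the Benjamini-Hochberg method over all genes tested. A gene passed at an adjusted p below 0.05. Single genes were not tested by permutation, because 2 against 2 libraries allow no exact p under 0.333. DESeq2 1.42.0, other scalings and filters, a replicate block and leaving out libraries served as alternatives. The fit was also run on simulated counts, but with a spread set below the common spread of these data, so it cannot show the error rates here. The members and lists were chosen with earlier results of these data known. Values in every library were set for *Atf4*, *Ddit3*, *Hspa5*, *Xbp1* and the 10 largest changes that passed with LPS and at 32 µM (5 in the other comparisons), other members being added as needed. From each other list, up to the 2 highest and 2 lowest that passed could be named. Promoters are RefSeq windows of GRCm38.p6.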

Additional observations from a re-analysis of the deposited data

How the results depend on the processing

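No member called in the reported fit passed in the opposite direction under an alternative run, although *Canx* with LPS turned to −0.014 without passing when libraries were scaled by size alone. The counts of members depended on the fit, and so did those of all genes. With a score of short-transcript genes in the fit, 7 members were higher and 16 lower at 32 µM, 3 higher and 10 lower at 10 µM, and 5 higher and 8 lower at 32 against 10 µM, while all genes that passed went from 1386 to 3652, from 378 to 1695 and from 391 to 1462 of 14172. DESeq2's Wald test gave 4 higher at 32 µM, 2 lower at 10 µM and 3 lower at 32 against 10 µM (all genes 1560, 598 and 550). EdgeR on the 4 libraries compared gave 1 higher and 6 lower at 32 µM, 0 lower at 10 µM, 1 lower at 3.2 µM and 0 higher at 32 against 10 µM (all genes 985, 41, 487 and 5). A minimum mean of 5 CPM gave 4 higher at 32 µM (all genes 1361 of 9566), and no count filter 1 lower at 32 against 10 µM (459 of 24140). Scaling by library size alone gave 9 lower with LPS (all genes 8001, against 7220) and 0 higher at 32 against 10 µM (366). Leaving out the 3 libraries that stand apart, an alternative chosen after seeing the data, gave 1 higher and 3 lower at 32 µM, 0 lower at 10 µM and 0 higher at 32 against 10 µM (all genes 746, 52 and 120). Leaving out single libraries gave 1 higher each time and 3 to 7 lower at 32 µM, 0 lower each time at 10 µM and 0 to 1 higher at 32 against 10 µM, with 1 library then standing for its condition and assumed to vary like the others (all genes 717 to 938, 83 to 397 and 192 to 401). These fits have fewer libraries, and the cause of the other shifts was not tested.

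Replicate numbers were shared by the conditions. The deviations of same-numbered libraries correlated from −0.169 to −0.0664 between DMSO + LPS and the other conditions. Among those other conditions all correlations were positive, from 0.104 to 0.573. The reported fit did not pair the libraries by number, and a replicate block served as an alternative. With the block 11 members were lower and 3 higher at 32 µM (*Hsp90b1* and *Xbp1* added), while all genes that passed went from 1386 to 1596. The block moved no other count of members. With 2 libraries a condition, the interval of the weakly expressed *Pycr1* was wide at 32 µM (log2 −0.52 to 0.35), so small changes of such members may be missed.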
